A study of Homo sapiens with 6 samples.

Results

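The genes described here encode subunits of oxidative phosphorylation, from the nuclear and the mitochondrial genome. Members were the rows of the count table whose symbol starts with NDUFA, NDUFB, NDUFC, NDUFS or NDUFV followed by a digit, or with UQCR, COX4 to COX8, ATP5, MT-ND, MT-CO, MT-ATP or MT-CYB. The rule found 98 of 22354 rows, of which 85 are nuclear genes and 13 are the protein-coding genes of mitochondrial DNA. NDUFA4 was counted with complex IV, where its protein is a subunit despite the name.

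RNA-seq was performed on 6 libraries of the human thyroid cell line HTori-3.1, written Htoris-3.1 in the sample labels. The question was how transcription differs after BMAL1, a transcription factor of the circadian clock, is disrupted. The control group held 3 libraries of wild-type genotype. The other group held 3 libraries of cells given a BMAL1 sgRNA and Cas9 by virus, selected with puromycin and grown from single clones; which clone gave which library was not stated, nor whether the controls had received a virus. All 6 came from cells exposed to etoposide at 2 μM, a topoisomerase inhibitor used here to bring on senescence, for 12 hours in the sample labels and 24 hours in the protocol, so no library shows the untreated state. Total counts were 26893063, 27029060 and 28513703 in control replicates 1, 2 and 3, and 43148059, 29860233 and 43563391 in the knockout-labelled replicates. Nothing stated that the replicates were separate cultures, so p-values measure only the spread between these libraries, which may be technical.

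Oxidative phosphorylation takes electrons from nutrients, passes them along complexes I, III and IV of the inner mitochondrial membrane, and uses the proton gradient this builds to make ATP in complex V. Mitochondrial DNA encodes the hydrophobic core proteins, while nuclear genes encode the other subunits, so each complex needs transcripts from both genomes. In the thyroid, hormone synthesis depends on hydrogen peroxide and iodide transport, both of which draw on cellular energy.

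BMAL1 itself (ENSG00000133794.20, chr11:13276652-13387266 in hg38) was read first, as a check of the labels. Its level was 11.3, 12.2 and 14.6 CPM (counts scaled to library size and TMM factor) in the 3 controls, and 17.9, 19.8 and 19.4 CPM in the libraries labelled BMAL1 knockout. The transcript was thus higher in all 3 knockout-labelled libraries, against the direction the label would give if the edit lowered the RNA; an edit that spoils the protein can leave the RNA in place, and the protein is not in these data. The growth protocol names a western blot as the check of the selected clones, and its result was not used here. The log2 fold change was 0.58 (SE 0.114, adjusted p = 0.0237 by the edgeR quasi-likelihood test with Benjamini-Hochberg adjustment). Without control replicate 1, control replicate 2, knockout replicate 2 or knockout replicate 3 the adjusted p was 0.105, 0.129, 0.0817 and 0.0598. Every direction below is that of the libraries labelled BMAL1 knockout against control, with the BMAL1 transcript itself higher in the knockout-labelled libraries.

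The cell type labels were compared with marker genes. Of 10 thyroid follicular markers, 2 passed the low-count filter, PAX8 and FOXE1, and their list summed to 173, 174 and 201 CPM in controls and to 130, 149 and 173 CPM in the knockout-labelled libraries, with PAX8 the most abundant. NKX2-1 and IYD had 0 counts in every library, and TG had at most 13 counts. Both kept markers had an unadjusted p under 0.05 by edgeR and were not called; FOXE1 was lower in all 3 knockout-labelled libraries, at -0.26 (adjusted p = 0.141), and PAX8 overlapped, at -0.28 (adjusted p = 0.263). Epithelial markers, led by KRT8, summed to 2990, 3044 and 2897 CPM in controls and to 2540, 2482 and 2563 CPM in the knockout-labelled libraries; 1 of the 5 kept was called, KRT18, a keratin of simple epithelia, at a log2 fold change of -0.50 (edgeR adjusted p = 0.00588, and 0.0561 without control replicate 2). KRT8 was also lower in all 3 knockout-labelled libraries but was not called, and KRT7, KRT19 and EPCAM had positive values with overlap, so the list had a median of 0.098. Mesenchymal markers, led by VIM, summed to 2752, 2779 and 2567 CPM and to 2258, 2443 and 2555 CPM, with DCN and LUM at 0 counts. VIM was lower in all 3 knockout-labelled libraries but was not called, while COL1A1 and PDGFRB overlapped. The list had a median of -0.0011, which was 0.13 without knockout replicate 1, with 2 positive and 1 negative. Leukocyte markers summed to 6.82, 6.84 and 7.32 CPM and to 3.00, 3.11 and 3.72 CPM, with PTPRC the most abundant and called at -1.42 (edgeR adjusted p = 0.00107). CD14, the other leukocyte marker kept, had the opposite sign and was not called, at 0.97 (edgeR adjusted p = 0.343), and CD3E had 0 counts in all 6. Endothelial markers, led by VWF, summed to 2.05, 1.83 and 2.21 CPM and to 1.34, 1.24 and 1.72 CPM, and of the C cell genes CALCA was at 0 and CALCB had 9 counts in knockout replicate 1 and 0 elsewhere. The cultures thus carried keratin, VIM and PAX8 transcripts with hardly any thyroid hormone genes, and the part of these marker differences in the results below was not tested.

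Knockout replicate 1 stood apart for nuclear members. The deviation of log2 CPM from each gene's mean over the 6 libraries had a median over 77 nuclear members of -0.024, 0.015 and -0.13 in the controls and of 0.24, 0.026 and -0.12 in the knockout-labelled libraries. That library gave the highest value for 55 of the 77 nuclear members, or 71.4%, against 23.5% of all genes kept. The 13 mitochondrially encoded members did not share this, with median deviations of -0.091, 0.0047 and 0.033 in controls and 0.062, 0.038 and 0.0082 in the knockout-labelled libraries. The main medians and counts are given with and without this library.

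**Figure D1:**
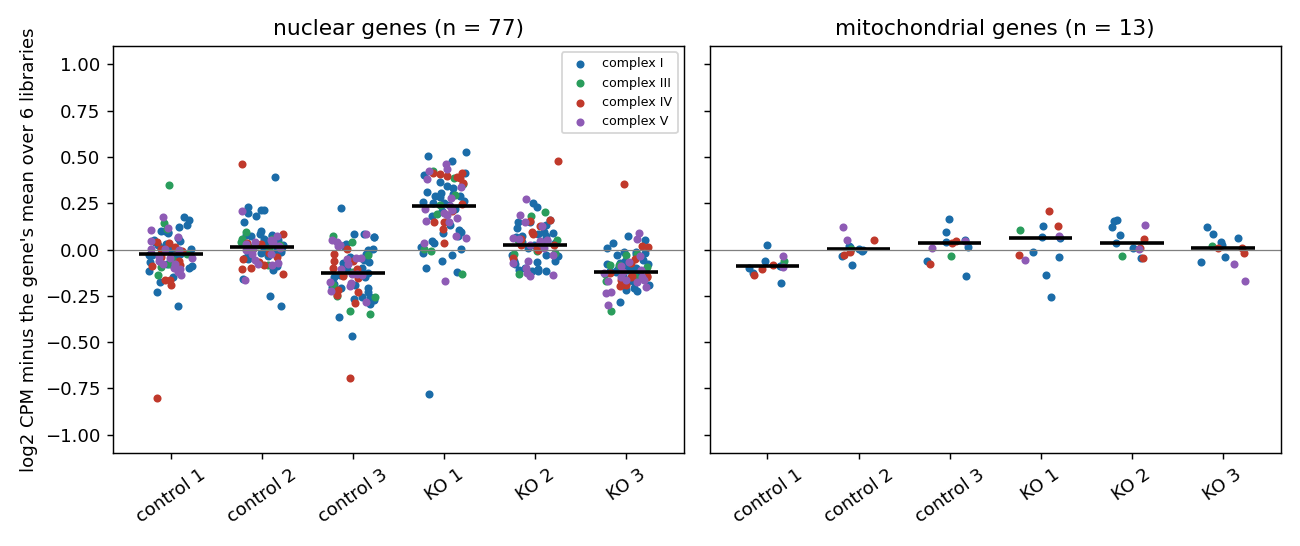
Deviation of log2 CPM from each gene's mean over 6 libraries (y axis) for 77 nuclear (left) and 13 mitochondrially encoded members (right); each point is a gene, colors are complexes and black bars are medians. The nuclear median is 0.24 in knockout replicate 1 and between -0.13 and 0.026 in the other libraries.

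Short transcripts as a class deviated in the same library. Among all genes with a canonical transcript under 600 nt, 181 genes, the median deviation was 0.20 in knockout replicate 1, -0.14 in control replicate 3 and -0.10 in knockout replicate 3. Most nuclear members are short, with a median length of 744 nt, against 3375 nt (median) over all genes kept. By annotated canonical length, the 8 nuclear members between 2000 and 4000 nt had a median deviation of 0.33 in knockout replicate 1, where all 4948 genes of that length had -0.016. The canonical transcript need not be the one expressed in these cells. With each library's length trend removed, the nuclear median log2 fold change was 0.042 in place of 0.078. The part of length in the deviation was not tested. The 78 cytosolic ribosomal protein genes kept, another set of short and abundant transcripts, had a median deviation of 0.30 in knockout replicate 1.

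Of the 98 members, 90 passed the low-count filter, 77 nuclear and all 13 mitochondrially encoded. The others were COX4I2, COX6A2, COX7B2 and COX8C with 0 counts in all 6 libraries, COX7A1 with 0 to 3 counts, ATP5MGL with 0 to 2, NDUFA4L2 with 4 to 21, and the read-through locus ATP5MF-PTCD1. None of the 90 members tested was called at an adjusted p under 0.05 by edgeR, where 2.37% of all 14860 genes were called (150 higher and 202 lower). At an unadjusted p under 0.05, 9 nuclear members were higher and 0 lower, and 0 of the 13 mitochondrially encoded members passed in either direction; over all genes the shares were 9.10% higher and 7.76% lower. Without knockout replicate 1 the nuclear count was 5 higher and 6 lower, beside 10.1% and 9.54% of all genes, and 2 mitochondrially encoded members were higher. Without knockout replicate 3 it was 25 higher and 1 lower, beside 8.95% and 8.05%, with 2 mitochondrially encoded members higher. The nuclear count was 5 higher and 2 lower without control replicate 3, beside 8.86% and 8.39%, with 1 mitochondrially encoded member higher. With the length trend removed it was also 5 and 2, beside 9.19% and 8.74%. Without control replicate 1 it was 5 higher and 0 lower, beside 7.09% and 5.43%. It was 6 higher and 0 lower without control replicate 2, beside 6.76% and 5.25%, and without knockout replicate 2, beside 7.15% and 5.87%. Scaling moved it too, to 16 higher and 0 lower with library size only and 14 and 0 with upper-quartile factors, each with 2 mitochondrially encoded members higher, where all genes had 11.2% and 5.82%, and 11.1% and 6.11%. DESeq2 and limma-voom also called 0 members. At an unadjusted p under 0.05, DESeq2 had 11 nuclear and 0 mitochondrially encoded members higher, beside 7.92% of all genes. With limma-voom these counts were 7 and 1, beside 8.69%. Each had 0 members lower, beside 7.65% and 7.74% of all genes. Groups did not overlap for 9 of 90 members that were higher (7 nuclear) and 3 that were lower, beside 11.8% and 11.5% of all genes.

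By direction alone, 57 of 77 nuclear members had a positive log2 fold change and 20 a negative value. Their median was 0.078, beside 0.0097 over all genes kept. Without knockout replicate 1 the nuclear median was -0.0055, with 37 positive and 40 negative, so the sign of the median depended on that library. It was 0.043 without control replicate 3 (49 positive and 28 negative) and 0.042 with the length trend removed (47 and 30). Other libraries moved it up, to 0.16 without knockout replicate 3 (63 and 14), and to 0.11 and 0.12 without control replicates 1 and 2. The 95% interval of the log2 fold change lay within a 1.5-fold change in either direction for 85 of 90 members and within 2-fold for 88. Only COX6B2, NDUFC2-KCTD14, NDUFB1, NDUFB5 and NDUFA5, the last chosen after its values were seen, had intervals reaching past 1.5-fold; the first pair also reached past 2-fold.

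**Figure D2:**
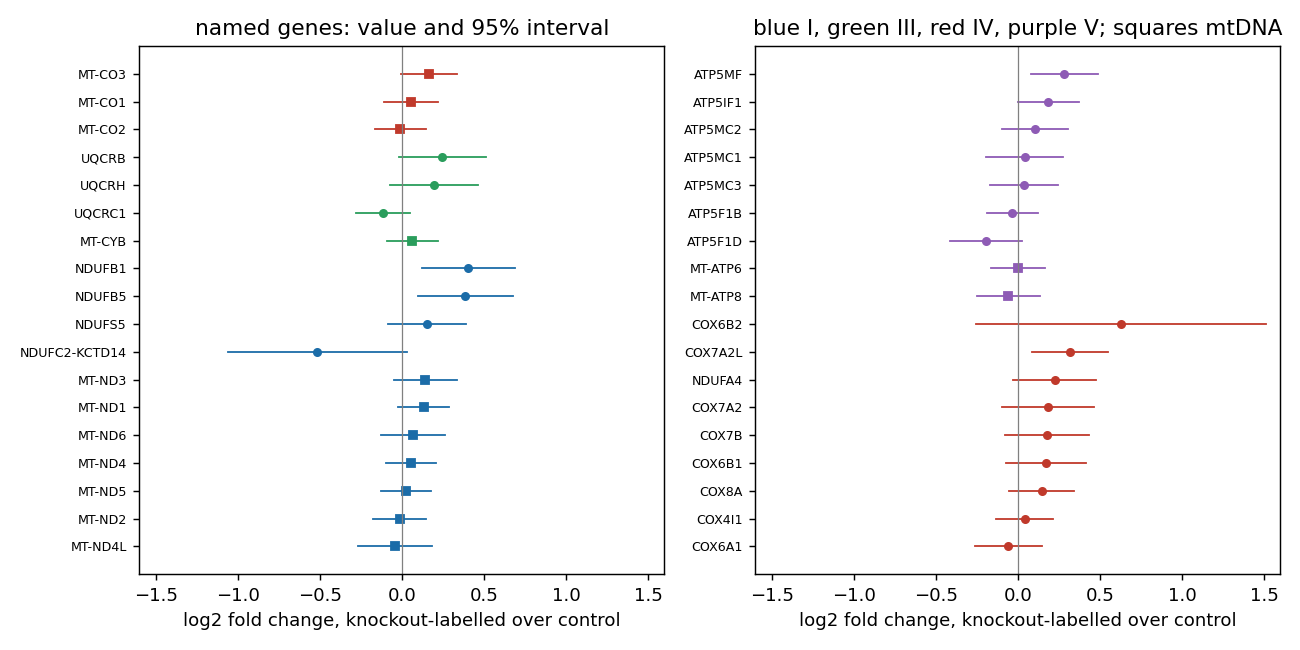
Log2 fold change of knockout-labelled libraries over controls (x axis) with its 95% interval for the members described in most detail (UQCRHL and NDUFA5 are not drawn), grouped by complex; squares are mitochondrially encoded genes. Most intervals include 0, and that of COX6B2 is the widest, from -0.25 to 1.51.

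The 13 mitochondrially encoded genes took 4.73%, 5.03% and 5.03% of all counts in the controls and 5.26%, 5.23% and 5.17% in the knockout-labelled libraries. The groups did not overlap, with means of 4.93% ± 0.176 (SD, n = 3) and 5.22% ± 0.0480 (SD, n = 3), a difference of 0.289 percentage points. Against library sizes scaled by TMM, as for every CPM here, the groups overlapped: 4.74%, 5.08% and 5.12% in controls and 5.32%, 5.11% and 5.08% in the knockout-labelled libraries, a difference of 0.188 percentage points. Exact Clopper-Pearson 95% intervals, which cover counting error only, were narrow, such as 4.72% to 4.73% for control replicate 1. Control replicate 1 weighed most on the difference, which was 0.187 percentage points without it and 0.267 without knockout replicate 1. The 85 nuclear members together took 0.702%, 0.710% and 0.677% in controls and 0.812%, 0.721% and 0.673% in the knockout-labelled libraries, where the groups overlapped. Mitochondrial over nuclear member counts therefore ran from 6.48 in knockout replicate 1 to 7.67 in knockout replicate 3, with controls at 6.73, 7.08 and 7.43. Less RNA per cell and fewer cells with that RNA cannot be told apart in bulk RNA.

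Complex IV passes electrons to oxygen, and its 3 mitochondrially encoded subunits form the catalytic core. MT-CO1, the subunit that binds oxygen, gave the highest level per kilobase of any member, with 8889 CPM per kb in controls. Its level was 12998, 13839 and 14286 CPM in controls and 15241, 13505 and 14019 CPM in the knockout-labelled libraries, and the groups overlapped. MT-CO2, which takes electrons from cytochrome c, had 3332, 3657 and 3654 CPM against 3465, 3558 and 3555 CPM. MT-CO3, a core subunit without metal centers, had 5233, 5643 and 5446 CPM in controls and 6656, 5987 and 5688 CPM in the knockout-labelled libraries. Its groups did not overlap, at a log2 fold change of 0.17 (95% interval -0.0029 to 0.34, edgeR adjusted p = 0.304), the highest of the 13. Without knockout replicate 1 it was 0.10, under MT-ND1 (0.13), MT-ND3 (0.12) and MT-ND6 (0.15).

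**Figure D3:**
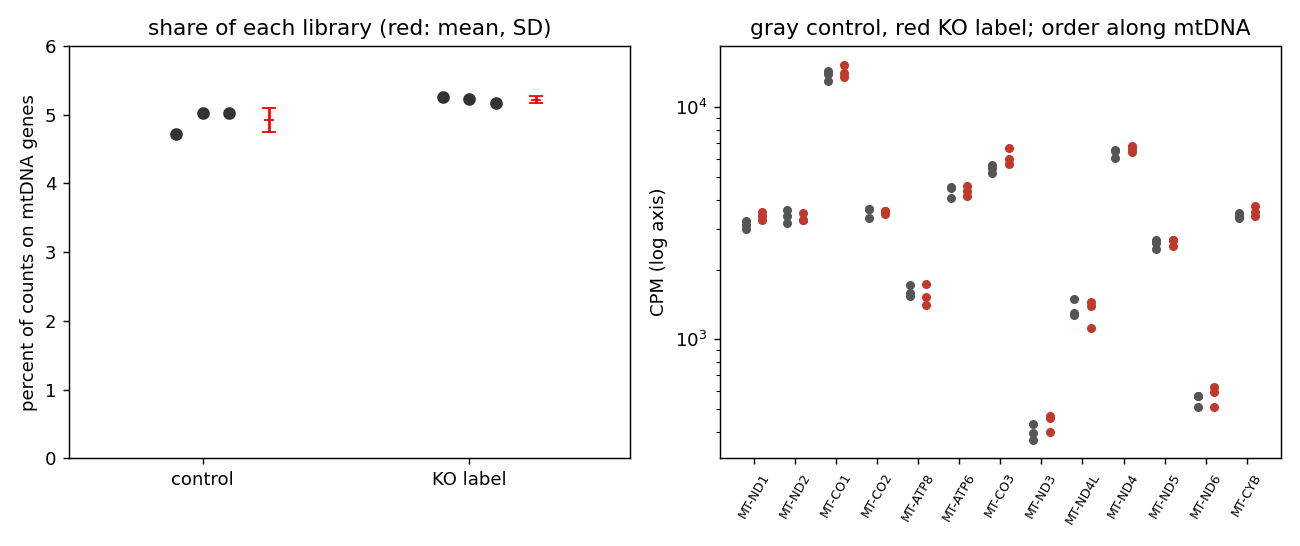
Left, percent of each library's total counts on the 13 mitochondrially encoded genes, with the mean and SD of 3 libraries in red; right, CPM of each gene on a log axis, in order along mitochondrial DNA, gray for control and red for knockout-labelled libraries. Knockout-labelled libraries lie between 5.17% and 5.26% and controls between 4.73% and 5.03%, while most single genes overlap.

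Complex I takes electrons from NADH, and 7 of its core subunits are mitochondrially encoded. MT-ND1, at the junction of its membrane and matrix arms, had 2980, 3231 and 3112 CPM in controls and 3403, 3277 and 3541 CPM in the knockout-labelled libraries. These groups did not overlap, at a log2 fold change of 0.13 (SE 0.0706, edgeR adjusted p = 0.372). MT-ND4, a proton-pumping subunit, had 6047, 6463 and 6533 CPM against 6410, 6825 and 6581 CPM. MT-ND2 (3162 to 3597 CPM in controls, 3266 to 3515 in the others), MT-ND3 (370 to 434 and 400 to 468), MT-ND4L (1278 to 1494 and 1116 to 1449), MT-ND5 (2450 to 2681 and 2535 to 2674) and MT-ND6 (510 to 572 and 511 to 627) all overlapped between groups. MT-ND6 is the single member on the other strand of mitochondrial DNA, and since the strand setting of the counting was not stated, its reads cannot be told apart from antisense transcripts. MT-CYB, the mitochondrially encoded subunit of complex III, had 3324, 3488 and 3394 CPM against 3745, 3398 and 3523 CPM, with overlap.

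In complex V, MT-ATP6 forms the proton channel and MT-ATP8 is a small stabilizing subunit. MT-ATP6 had 4079, 4510 and 4492 CPM in controls and 4586, 4360 and 4133 CPM in the knockout-labelled libraries. MT-ATP8 had 1541, 1718 and 1588 CPM against 1520, 1732 and 1402 CPM, with the lowest log2 fold change of the 13 at -0.058 (SE 0.0880), though not without knockout replicate 1, at -0.046. Neither separated the groups. The 2 genes share 46 bases (chrM:8527-8572), and MT-ND4L and MT-ND4 share 7 (chrM:10760-10766), so a read there fits both genes of a pair and how it was counted was not stated. Both overlaps are printed because the values of these 4 genes depend on them, read from hg38 chrM on the + strand (chrM:8515-8584 and chrM:10748-10778), with the shared bases in capitals; the capitals open with the start codon of the second gene and end with the stop codon of the first.
MT-ATP8 and MT-ATP6: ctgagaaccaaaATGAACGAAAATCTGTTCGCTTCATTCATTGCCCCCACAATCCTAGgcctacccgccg
MT-ND4L and MT-ND4: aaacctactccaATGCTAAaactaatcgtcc

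Over the 13 genes the median log2 fold change was 0.056, from -0.058 to 0.17, with 8 positive and 5 negative. Without knockout replicate 1 it was 0.049, but it fell to 0.018 without control replicate 1 and to 0.014 without knockout replicate 2. The level per kilobase in controls ran from MT-CO1 through MT-ATP8 (7804 CPM per kb), MT-CO3 (6940), MT-ATP6 (6403), MT-CO2 (5187), MT-ND4 (4606) and MT-ND4L (4572) down to MT-ND3 (1156) and MT-ND6 (1049). The RNAs of these genes are cut from long shared precursors, and the counts per kilobase of their rows were unequal. For MT-ATP8 with MT-ATP6, and MT-ND4L with MT-ND4, these values also depend on how shared reads were counted.

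Nuclear complex I subunits divide into 7 core subunits, which carry the flavin and iron-sulfur clusters, and accessory subunits around them. Of 29 accessory subunits, 24 had a positive log2 fold change, with a median of 0.12. An unadjusted p under 0.05 was reached by 5 that were higher, or 17.2%, beside 9.10% of all genes. Without knockout replicate 1 it was reached by 2 higher and 2 lower, beside 10.1% and 9.54% of all genes. Of the 7 core subunits, 2 were positive, with a median of -0.074. The accessory median was 0.018 without knockout replicate 1, and the core median was -0.10. In that library the accessory subunits had a median deviation of 0.26 and the core subunits of -0.020, so the 2 classes differed most in the library that stood apart.

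NDUFB1, an accessory subunit of the membrane arm, had the highest log2 fold change of complex I. Its level was 8.13, 10.1 and 8.21 CPM in controls and 13.0, 11.3 and 10.6 CPM in the knockout-labelled libraries. All 3 knockout-labelled libraries lay above all controls, at 0.40 (95% interval 0.12 to 0.69, edgeR adjusted p = 0.135), and at 0.31 without knockout replicate 1. With the length trend removed NDUFB1 was at 0.29. NDUFB5, another membrane-arm subunit, picked after its values were seen, had 63.4, 58.0 and 68.1 CPM against 103, 73.7 and 70.8 CPM. Its groups did not overlap, at 0.39 (SE 0.132, adjusted p = 0.156), but knockout replicate 1 stood well above the rest, and the value was 0.19 without it. NDUFS5 was the nuclear complex I member with the most counts per kilobase, 177 CPM per kb in controls, at 86.5, 90.7 and 85.7 CPM against 114, 97.6 and 81.4 CPM, with overlap.

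NDUFC2-KCTD14, a locus that joins NDUFC2 with the gene next to it by read-through, had the lowest value of complex I. It had 1.83, 2.13 and 1.89 CPM in controls and 0.914, 1.54 and 1.67 CPM in the knockout-labelled libraries. The groups did not overlap, but the log2 fold change of -0.51 (SE 0.250, edgeR adjusted p = 0.324) was -0.27 without knockout replicate 1, its lowest library, and then no longer the lowest of complex I. Another read-through locus went the other way in that library: ATP5MF-PTCD1 had 6, 4 and 4 counts in controls and 87, 4 and 6 in the knockout-labelled libraries. The first shares 428 exon bases with NDUFC2 and 395 with KCTD14, and the second 166 with ATP5MF and 2382 with PTCD1, so the split of reads is uncertain. In all, 38 members share exon bases with another row of the table, COX6B2 and NDUFB5 among them.

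Complex III moves electrons from ubiquinol to cytochrome c. Its nuclear subunits UQCRC1, UQCRC2 and UQCRFS1 all had negative values, from -0.12 to -0.0075, with a median of -0.034. Its 5 small subunits were all positive, with a median of 0.20. Without knockout replicate 1 the medians were -0.080 and 0.069. UQCRC1, a core subunit, had 135, 133 and 122 CPM in controls and 114, 124 and 123 CPM in the knockout-labelled libraries, at -0.12, the lowest of the complex, though not without knockout replicate 1, at -0.080. UQCRB, a small subunit that binds ubiquinone, had 67.8, 70.3 and 68.6 CPM against 99.9, 77.2 and 67.9 CPM, at 0.25, the highest, with overlap through knockout replicate 3. Without knockout replicate 1 it was 0.071 and UQCRQ, named after its values were seen, was the highest at 0.14. UQCRH, the hinge protein, had 97.7, 105 and 91.4 CPM against 136, 108 and 92.6 CPM, and gave the most counts per kilobase of the nuclear members of complex III, 183 CPM per kb in controls. UQCRHL, a near-identical copy of UQCRH, had 4.14 to 6.75 CPM in controls and 4.18 to 6.25 CPM in the others, and reads that fit both copies make the values of the pair uncertain.

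Nuclear subunits of complex IV gave the most one-sided count of directions among the 4 complexes. Of the 13 kept, 12 had a positive log2 fold change, with a median of 0.18, yet 12 of 13 also had their highest value in knockout replicate 1. Without that library the median was 0.082, with 10 positive and 3 negative. COX7A2L, which helps join complexes III and IV into supercomplexes and was picked after its values were seen, had 90.5, 92.7 and 91.2 CPM in controls and 136, 104 and 103 CPM in the knockout-labelled libraries. Its groups did not overlap, at 0.32 (95% interval 0.088 to 0.55, edgeR adjusted p = 0.144), and at 0.17 without knockout replicate 1. COX6A1, the lowest among the ubiquitous subunits at -0.059, had 92.9, 96.1 and 88.9 CPM against 100.4, 87.5 and 78.8 CPM. COX8A, the smallest subunit, gave the most counts per kilobase of the nuclear members of complex IV, 305 CPM per kb in controls, at 157, 162 and 133 CPM against 175, 172 and 152 CPM, with overlap.

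Several subunits of complex IV come in a ubiquitous form and a form known from heart, muscle, lung or testis. The ubiquitous forms carried nearly all counts. COX4I1 had 129, 131 and 120 CPM in controls and 139, 130 and 122 CPM in the knockout-labelled libraries. Its lung isoform COX4I2 had 0 counts in every library, which bounds the expected count at about 3 a library. COX7A2 had 47.8, 48.9 and 47.3 CPM against 67.6, 50.7 and 45.3 CPM, while the muscle isoform COX7A1 had at most 3 counts. COX7B had 60.6, 64.2 and 68.3 CPM against 87.5, 69.3 and 61.7 CPM, beside 0 counts for COX7B2. COX6B1 had 48.8, 45.2 and 40.7 CPM against 56.2, 52.7 and 42.7 CPM. Its testis isoform COX6B2 was barely present, at 0.261, 0.711 and 0.286 CPM against 0.586, 0.721 and 0.654 CPM, and its log2 fold change of 0.63, the highest of complex IV, had an interval from -0.25 to 1.51. That value was 0.39, 1.23 and 0.42 without control replicates 1, 2 and 3. NDUFA4 had 104, 101 and 97.9 CPM against 142, 113 and 97.9 CPM, beside 4 to 21 counts of its isoform NDUFA4L2. At these counts a shift between forms could not be measured.

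Complex V has a soluble F1 head that makes ATP, a ring of c subunits that turns in the membrane, and a stalk that holds the head still. Of 18 nuclear members kept, 14 were positive, with a median of 0.058, which was -0.073 without knockout replicate 1, with 6 positive. ATP5F1B, the catalytic beta subunit, had 966, 969 and 991 CPM in controls and 1014, 922 and 920 CPM in the knockout-labelled libraries, and 554 CPM per kb in controls, the highest of the nuclear members of complex V. ATP5F1D, the delta subunit of the central stalk, had 42.9, 43.9 and 35.2 CPM against 33.6, 36.0 and 37.1 CPM, the lowest of the complex at -0.19 (SE 0.0996, edgeR adjusted p = 0.353), though not without knockout replicate 1, at -0.15. Both overlapped between groups. The c ring is encoded by 3 genes with the same mature protein: ATP5MC1 had 51.1, 48.5 and 40.2 CPM against 52.3, 48.3 and 43.3 CPM. ATP5MC2 had 148, 151 and 130 CPM against 169, 153 and 139 CPM. ATP5MC3 had 166, 168 and 173 CPM against 198, 172 and 151 CPM, so all 3 overlapped.

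ATP5MF, a membrane subunit of complex V, did not follow knockout replicate 1. It had 47.9, 47.3 and 41.1 CPM in controls and 52.3, 60.6 and 53.3 CPM in the knockout-labelled libraries. The groups did not overlap, at a log2 fold change of 0.28 (95% interval 0.079 to 0.49, edgeR adjusted p = 0.144), and the value was 0.32 without knockout replicate 1. With each library's trend on GC content removed, ATP5MF was called at 0.31 (edgeR adjusted p = 0.0257, over a range of 0.0257 to 0.426 among the alternatives), a setting that called 499 genes higher and 622 lower in place of 150 and 202. ATP5IF1, which inhibits ATP hydrolysis by complex V and was picked after its values were seen, had 42.7, 44.2 and 39.8 CPM against 46.2, 51.2 and 46.9 CPM. Its groups did not overlap either, at 0.19 (SE 0.0846, adjusted p = 0.293), and at 0.21 without knockout replicate 1. Among the alternatives that kept all 6 libraries, ATP5IF1 ran from 0.11 to 0.22 and ATP5MF from 0.20 to 0.31.

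**Figure D4:**
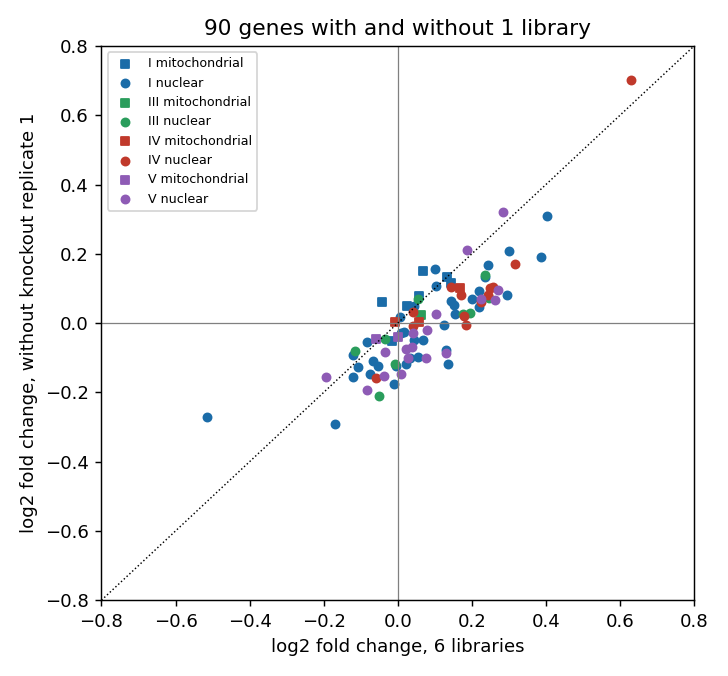
Log2 fold change from all 6 libraries (x axis) and without knockout replicate 1 (y axis) for the 90 members, with the dotted line at equal values; circles are nuclear and squares mitochondrially encoded genes. Most nuclear members lie under the line, and ATP5MF is above it at 0.28 and 0.32.

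Promoter sequence was read for the members, since BMAL1 binds E-boxes with its partner CLOCK. RefSeq promoters (GRCh38.p14, 250 bases before to 50 after the start) matched 67 of the 98 members. The E-box CACGTG, which reads the same on both strands, was in 7 of the 67, or 10.4%, and in 7.43% of all 27305 promoters and 10.0% of those of genes kept. Each is printed as 30 bases on the gene's strand with the E-box in capitals, to show where letters known for BMAL1 lie in members.
ATP5MC1 (chr17:48892779-48892808, + strand): gaaggtccaggaCACGTGggtgggggaagc
ATP5ME (chr4:674421-674450, - strand): gcgcgtgcgcctCACGTGacgtcaccgccg
ATP5PB (chr1:111449229-111449258, + strand): ggcagcaaacccCACGTGgtgcacctctga
NDUFA11 (chr19:5903905-5903934, - strand): ggcctggggatgCACGTGctactctcttcc
NDUFA7 (chr19:8321478-8321507, - strand): gcggagaggagtCACGTGcttcggggagag
NDUFS7 (chr19:1383708-1383737, + strand): acccgcggccccCACGTGcgcactccgatg
UQCR11 (chr19:1605632-1605661, - strand): cggccgccagacCACGTGgccagaaagcac

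The 7 members with the E-box had a median log2 fold change of 0.041, and the 57 without it among those kept had 0.10. Other motifs were searched on both strands, with no test of the shares. GCGCATGC, known for NRF1, was in 11 of 67, or 16.4%, against 3.27% of all promoters and 5.39% of those of genes kept. AAGATGGC, known for YY1, was in 10, or 14.9%, against 3.03% and 5.13%. AAGGTCA, known for estrogen-related receptors, was in 7, or 10.4%, against 3.97% and 2.41%. CCGGAAG, known for ETS factors such as GABPA, was in 18, or 26.9%, against 10.7% and 18.7%. Members with and without them had medians of 0.10 and 0.078 for GCGCATGC, 0.088 and 0.090 for AAGATGGC, 0.10 and 0.075 for AAGGTCA, and 0.066 and 0.10 for CCGGAAG. These medians were not recomputed without knockout replicate 1. A match is a description of letters and not a bound site.

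Other genes of the pathway were read from lists. Over all genes, 2.37% were called by edgeR, and 9.10% were higher and 7.76% lower at an unadjusted p under 0.05. Without knockout replicate 1 these unadjusted shares were 10.1% and 9.54%. Of 4 complex II genes, which are all nuclear, 0 were called by edgeR (1 lower at an unadjusted p under 0.05), with a median of 0.046, or -0.11 without knockout replicate 1. Of 60 assembly factors, 1 was called, beside 2.37% of all genes, with a median of 0.037, or -0.030 without knockout replicate 1. At an unadjusted p under 0.05, 1 was higher and 3 lower, or 1 and 5 without that library. The called gene SCO2, which delivers copper to complex IV, had 3.06, 4.38 and 3.07 CPM in controls and 1.83, 1.74 and 1.94 CPM in the knockout-labelled libraries. These groups did not overlap, at a log2 fold change of -0.92 (SE 0.196, edgeR adjusted p = 0.0334), and the call was lost in 8 of 19 alternatives. Adjusted p was 0.0556, 0.159 and 0.0790 without control replicates 1, 2 and 3, and 0.0956 and 0.0646 without knockout replicates 2 and 3. Of 53 genes for mitochondrial transcription, RNA processing and translation, 1 was called, beside 2.37% of all genes. Their median was -0.016, or -0.056 without knockout replicate 1. At an unadjusted p under 0.05, 2 were higher and 6 lower, or 1 and 10 without that library. The called gene ELAC2, which trims the 3′ ends of mitochondrial tRNAs, had 107, 107 and 105 CPM against 79.5, 81.6 and 91.5 CPM. Every knockout-labelled library was lower, at -0.33 (SE 0.0781, adjusted p = 0.0498), just inside the threshold, and the call was lost in 10 of 19 alternatives. Adjusted p was 0.166, 0.191 and 0.104 without control replicates 1, 2 and 3 and 0.198 without knockout replicate 2. Among 79 mitochondrial ribosome genes 0 were called (2 higher and 6 lower at an unadjusted p under 0.05), with a median of 0.0083. Without knockout replicate 1 the median was -0.097, and 2 were higher and 15 lower, beside 10.1% and 9.54% of all genes. The 18 regulators kept, such as NRF1 and GABPA, gave 0 calls (3 higher and 2 lower unadjusted, beside 9.10% and 7.76% of all genes). Their median was -0.064 (-0.037 without knockout replicate 1). The 34 import and protease genes gave 0 calls (1 higher and 5 lower, beside the same shares) and a median of -0.051. Without knockout replicate 1 that median was -0.12, with 0 higher and 8 lower, beside 10.1% and 9.54% of all genes. The 19 electron carrier and ubiquinone genes, with MT-CYB in common with the members, gave 0 calls and 0 at an unadjusted p under 0.05, with a median of -0.026. Leaving out knockout replicate 1 gave this list a median of -0.037, with 0 higher and 2 lower, beside 10.1% and 9.54% of all genes.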

How the data were processed

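Whole-number counts per gene or assembled locus were deposited; replicates are not pooled and no normalization was applied. According to the authors' methods, adapter-bearing and low-quality reads were removed first, and counting used reads with a single hg38 alignment. The methods name fastp 0.20.1 for mapping and HISAT2 2.0.4 for counting, which are not the usual roles of these tools. Annotation and strand setting are not stated. Columns were matched to samples by name.

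CPM, log2 fold changes and p-values came from edgeR 4.0.16 in R 4.3.3 (TMM, filterByExpr, robust quasi-likelihood fit, 2-sided, no block). Benjamini-Hochberg adjustment covered 14860 rows, and intervals are 95%. DESeq2 1.42.0 and limma-voom (limma 3.58.1) were alternatives, as were other scalings and filters, GC and length trends (lowess, span 0.3) and leaving out each library. Deviations used log2 CPM with a prior count of 2. Lengths and GC came from GENCODE 44 canonical transcripts, found for 91.4% of rows kept, and levels per kilobase depend on that transcript.

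Named genes were BMAL1, all mitochondrially encoded members, members past an adjusted p of 0.05, the most abundant per kilobase, highest and lowest of each complex, isoform pairs, and called genes of other lists. The members and lists were chosen with earlier results of these data known. Replicates in a group differed by 5.41 to 45.0 times the counting variance, so no deposited column was a copy of another; this does not show separate cultures.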

Additional observations from a re-analysis of the deposited data

How the results depend on the processing

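Counts of members called lower, and of mitochondrially encoded members called higher, were 0 under every alternative run. Nuclear members called higher were 0 except with the GC trend removed, 1 (ATP5MF), and with the GC trend removed and the replicate block, 3 (ATP5MF, NDUFB5 and COX7A2L, at adjusted p 0.0272, 0.0422 and 0.0495). Over all genes these settings called 499 higher and 622 lower, and 390 and 509, of 14860. At an unadjusted p under 0.05 the second had 21 nuclear members higher and 2 lower, beside 11.9% and 12.3% of all genes. It also had 2 mitochondrially encoded members higher. Same-numbered replicates did not deviate together (correlations -0.090, -0.052 and -0.0047), which cannot show whether they were prepared together. With the replicate block alone, 0 members were called and the nuclear median was 0.071. Over all genes that setting called 97 higher and 119 lower in place of 150 and 202. That split was 175 and 155 with library size only and 186 and 161 with upper-quartile factors. The nuclear median ran from 0.042 (length trend removed) to 0.11 (library size only), and from -0.0055 to 0.16 on leaving out a library, negative without knockout replicate 1. Among strict subunits only, a choice made after seeing the data, 0 were called and the median was 0.077. BMAL1 stayed positive throughout, from 0.50 to 0.69 on leaving out a library. The mitochondrial median stayed positive, from 0.013 to 0.085, and the difference in share ran from 0.187 to 0.340 percentage points, at 0.188 with TMM-scaled library sizes, also chosen after seeing the data, where the groups overlapped.

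COX6B2 had no value with at least 10 counts in every library. Some values changed sign, most of them near 0, and the cause was not tested. With library size only and upper-quartile factors MT-ND2 was 0.014 and 0.011, MT-CO2 0.021 and 0.017, and MT-ATP6 0.028 and 0.025; MT-ATP6 was also 0.0017 scaled without mitochondrial genes, 0.0048 unfiltered and 0.0033 with at least 10 counts. With the length trend removed COX4I1 was -0.018 and ATP5MC1 -0.027; with the GC trend removed ATP5MC3 was -0.024, and -0.026 with the block. Leaving out a library gave -0.063 to 0.034 for MT-ND2, -0.12 to 0.061 for MT-ND4L, -0.012 to 0.057 for MT-ND5, -0.053 to 0.016 for MT-CO2, -0.047 to 0.036 for MT-ATP6, -0.14 to 0.0092 for MT-ATP8, -0.16 to 0.021 for COX6A1, -0.0089 to 0.085 for COX4I1, -0.0045 to 0.30 for COX7A2, -0.051 to 0.11 for ATP5MC1 and -0.069 to 0.13 for ATP5MC3.

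Spread between 3 libraries limited these comparisons, as did low counts for genes such as COX6B2 and NDUFC2-KCTD14. Transcript levels say nothing of protein, assembly or respiration, which were not analysed here.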
